A study of Mus musculus with 32 samples.

Results

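The genes of fatty acid uptake, storage and oxidation were followed in mesothelioma tumors that grew in the pleural cavity or under the skin. A list of 38 gene symbols defined the group, in 9 roles from uptake at the cell surface to electron transfer in the mitochondrion. Of these, 34 had a row in the table of 39676 genes. Cpt1a, Acaa2, Acsl5 and Eci1 are not analysed here. RNA from whole tumors was sequenced from 32 untreated female mice aged 8 to 10 weeks, with 8 mice in each of 4 groups. Both models start from an established line of mouse mesothelioma, the cancer of the pleural and peritoneal lining. AB1 tumors came from 500000 cells in BALB/c mice and AE17 tumors from 1000000 cells in C57BL/6 mice, placed either intrapleurally (IPL) or subcutaneously (SC), and were collected at day 10 after lungs and surrounding tissue had been removed. Each model is 1 cell line in 1 mouse strain, so that cell line, strain and cell number cannot be told apart.

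Fatty acids reach a cell from lipoproteins cut by lipoprotein lipase or from the circulation, pass the membrane with the help of CD36, and are carried in the cytosol by fatty acid binding proteins. Acyl-CoA synthetases activate them. They are then stored in lipid droplets or moved by the carnitine shuttle into mitochondria, where beta-oxidation shortens them and hands electrons to the respiratory chain. Many of these genes are known targets of the peroxisome proliferator-activated receptors (PPARs), and heart muscle, skeletal muscle and brown fat are tissues known for high levels of them.

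PPARs bind as a pair with the retinoid X receptor to a repeat of the letters AGGTCA with 1 base between the copies, written AGGTCANAGGTCA, where N is any base. The 250 bases before the RefSeq start site were searched for it on both strands on build GRCm38.p6. Of the 34 genes, 27 had such a sequence in the reference used, in 29 windows. None of the 29 windows held the repeat exactly, and 11 of all 32851 promoter windows did (0.0335%). With up to 2 mismatches it was found in 4 of the 29 windows (13.8%), those of Cd36, Etfa, Plin2 and Ucp3, and in 1063 of the 32851 (3.24%). The shorter AGGTCA, which is part of the repeat, was found in 6 of the 29 windows (20.7%) and in 4607 of all windows (14%). These matches are descriptions of the letters and not binding sites. The windows of Pdk4 and Plin2 are shown because both genes were higher in IPL tumors of both models, and that of Ucp3 because it holds a match near the start site of a gene whose site difference differed between the models. They are printed 5′ to 3′ along the gene and without bases inside the GENCODE gene model, with the closest match of at most 2 mismatches in capitals. The match of Plin2 begins 225 bases before the start site and lies on the opposite strand, and that of Ucp3 begins 51 bases before it on the same strand. The window of Pdk4 holds no match with at most 2 mismatches.
Pdk4, chr6:5496310-5496528, reverse strand, 219 bases: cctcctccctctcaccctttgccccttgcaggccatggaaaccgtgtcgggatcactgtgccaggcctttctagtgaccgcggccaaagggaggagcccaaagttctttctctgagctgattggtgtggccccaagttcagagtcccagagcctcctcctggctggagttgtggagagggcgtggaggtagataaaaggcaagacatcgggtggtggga
Plin2, chr4:86670061-86670309, reverse strand, 249 bases: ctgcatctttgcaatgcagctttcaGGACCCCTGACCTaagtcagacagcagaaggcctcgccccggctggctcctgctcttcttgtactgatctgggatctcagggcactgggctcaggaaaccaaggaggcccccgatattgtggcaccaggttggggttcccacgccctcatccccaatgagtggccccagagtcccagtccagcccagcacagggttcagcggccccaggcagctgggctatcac
Ucp3, chr7:100472741-100472989, forward strand, 249 bases: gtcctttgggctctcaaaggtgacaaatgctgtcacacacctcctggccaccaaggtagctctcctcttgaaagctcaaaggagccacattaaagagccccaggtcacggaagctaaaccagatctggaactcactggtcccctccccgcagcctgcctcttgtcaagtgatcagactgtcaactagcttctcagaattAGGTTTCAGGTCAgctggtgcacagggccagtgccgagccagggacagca

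Hadha and Hadhb, which encode the alpha and beta subunits of the mitochondrial trifunctional protein, lie head to head on chromosome 5 with 85 bases between their gene models. The bases between them are shown because both genes start at its ends, their products form a joint complex, and the pair is compared below. It has a GC content of 69.4%.
Hadha and Hadhb, chr5:30155163-30155247, forward strand of GRCm38.p6: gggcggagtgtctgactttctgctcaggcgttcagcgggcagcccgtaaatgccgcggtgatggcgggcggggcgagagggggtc

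Each library held between 15432258 and 20649645 counts. Levels are given as CPM, counts scaled to a common depth of 1000000 after adjustment of the 32 libraries by TMM factors, and 3 counts, the smallest number taken as detected, correspond to between 0.139 and 0.190 CPM. The mesothelial marker Pdpn lay between 74.2 and 226 CPM in all 32 tumors. Wt1, Upk3b, Calb2, Krt19 and Lrrn4 were at 0 in at least 1 tumor, with highest values of 10.96, 31.4, 1.14, 11.5 and 23.9 CPM. Group medians of Upk3b were 0.135 CPM in AB1 IPL, 0 in AB1 SC, 1.86 in AE17 IPL and 0 in AE17 SC tumors, and those of Lrrn4 were 0.107, 0.0585, 1.94 and 0.0608 CPM. The AB1 IPL means, 4.07 and 3.30 CPM, lay far above the medians. Both genes were too low for the site tests within a model. Msln, Upk1b, Krt8 and Krt18 are not analysed here. The lanes differed between sites. All 8 AB1 IPL libraries were sequenced in lane 3, and of the AB1 SC libraries 6 were in lane 2 and 2 in lane 3. Of the AE17 IPL libraries 5 were in lane 2 and 3 in lane 1, with all 8 AE17 SC libraries in lane 1. No lane held libraries of the 2 models at 1 site.

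Markers of other tissues also moved with the site. The summed level of 10 skeletal muscle markers ranged from 113 to 4697 CPM (median 2273) in AB1 IPL tumors and from 55.5 to 515 CPM (median 315) in AB1 SC tumors, and 9 of the 10 were higher in IPL tumors. In AE17 the same sum ranged from 58.8 to 849.8 CPM in IPL tumors and from 46.2 to 1329 CPM in SC tumors, with a median log2 fold change of -0.58 over the 10, of which none passed. The 6 white adipocyte markers with a row summed to between 10.6 and 382 CPM in AB1 IPL tumors and between 1.51 and 37.4 CPM in AB1 SC tumors, and 2 of 4 tested were higher in IPL tumors. In AE17 IPL replicate 5 they summed to 908 CPM, with 52.9 CPM in the next highest IPL tumor, and its heart muscle markers summed to 186 CPM against 29.9 CPM in the next. No adipocyte marker passed the test in AE17. Of 3 heart muscle markers tested in AB1, 1 was higher and 1 lower in IPL tumors, with a median log2 fold change of -0.41, and of 3 in AE17 1 was higher. Tnnt2 was higher in IPL tumors of both models (3.11 ± 0.64 SE on the log2 scale, adjusted p = 0.00206, in AB1 and 1.49 ± 0.32 SE, adjusted p = 0.0195, in AE17), and Tnni3 was lower in AB1 (-0.88 ± 0.22 SE, adjusted p = 0.00739). The means of Myh6, another heart muscle marker that was too low for the site tests within a model, were 9.28 CPM in AB1 IPL, 0.201 in AB1 SC, 16.3 in AE17 IPL and 0.387 in AE17 SC tumors. Of 5 endothelial markers, 2 were higher in AB1 IPL tumors, Cdh5 and Tek (0.42, adjusted p = 0.0284, and 0.62, adjusted p = 0.0124), and the other 3 did not pass (-0.11 to 0.37). Of 6 macrophage markers, 3 were lower in AB1 IPL tumors and 0 changed in AE17. In whole tumors, fewer cells of a type and less RNA per cell cannot be told apart.

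In AB1, 33 of the 34 genes were tested and 17 changed (51.5%), with 15 higher and 2 lower in IPL than in SC tumors at an adjusted p under 0.05. Among all 14645 genes tested in AB1, 23% changed, 12.3% being higher and 10.7% lower. Pdk4 and Fabp3 had the largest rises, at 49.6-fold and 21.6-fold, and Fabp5 and Acsl4 were the 2 that fell. Differences between groups are log2 fold changes throughout, IPL over SC or AB1 over AE17. Their median was 0.24 over the members and -0.0023 over all genes. The IPL and SC groups did not overlap for 7 members, and for 5.02% of all genes. These 7 were Pdk4, Fabp3, Cpt2, Acadvl, Hadha, Hadh and, in the lower direction, Fabp5.

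In AE17, 3 of the 33 members tested changed, all of them higher in IPL tumors, namely Pdk4, Plin2 and Acadl. Of all 14668 genes tested in AE17, 5.73% changed, 2.60% higher and 3.13% lower. By unadjusted p under 0.05 there were 6 members, and DESeq2 called 5. The median log2 fold change of the members was 0.044 and that of all genes 0.0043. Without AE17 IPL replicate 5 there were 4 calls, 2 higher and 2 lower, the lower ones being Abhd5 and Hadhb (adjusted p = 0.0317 and 0.0428). No member had groups without overlap, against 0.573% of all genes. Pdk4 and Plin2 changed in both models, 15 members in AB1 only, 1 in AE17 only and 15 in neither. The difference of the site effects between the models was therefore tested itself, and is given below for the members that passed and some others as the AB1 log2 fold change minus that of AE17. It passed the threshold for 14 of 34 members, 12 more positive and 2 more negative in AB1, where 20.5% of all 15681 genes passed (11.9% more positive and 8.62% more negative).

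**Figure D1:**
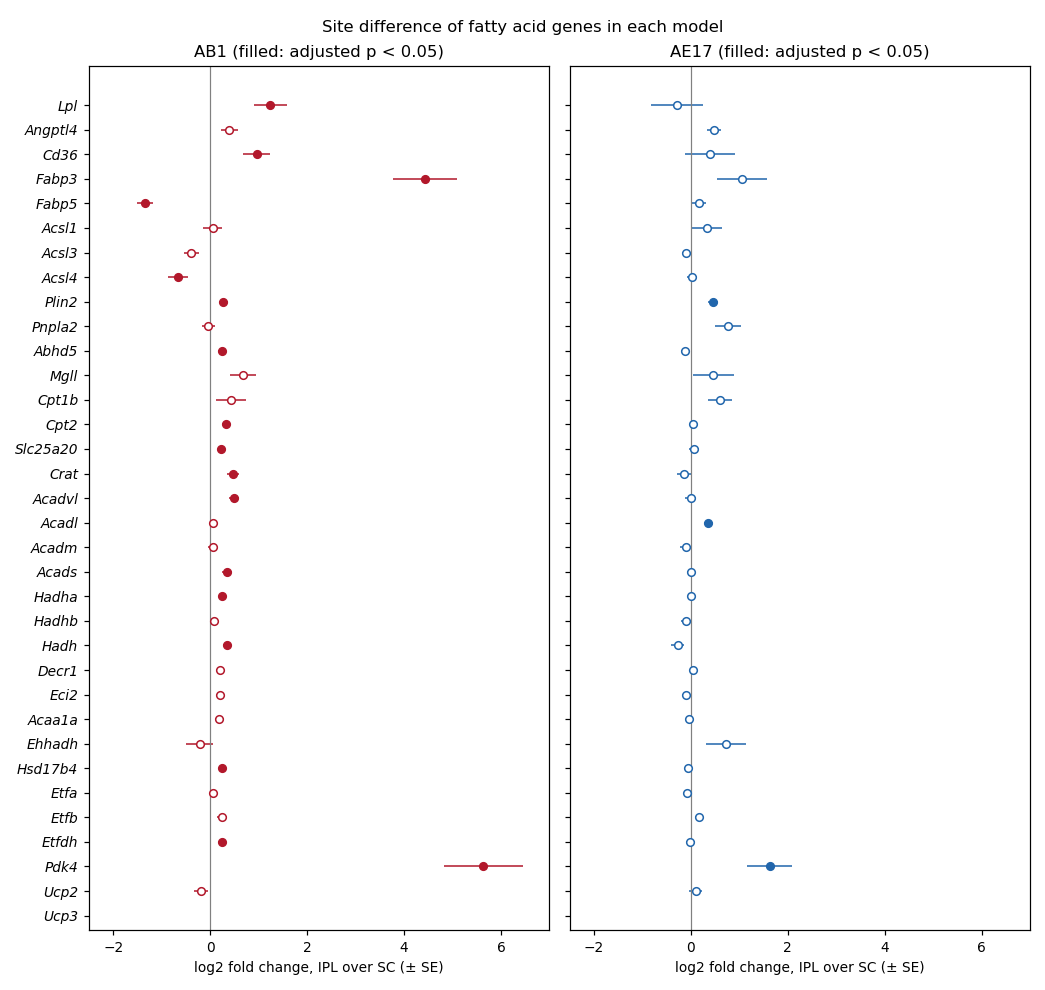
Log2 fold change of IPL over SC tumors with its SE (horizontal axis) for each member (vertical axis) in AB1, left, and AE17, right, with filled points at an adjusted p under 0.05. Of the 33 members drawn in each panel, 17 are filled in AB1 and 3 in AE17, and Ucp3 is not drawn because it was too low for these fits.

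The AB1 calls fell in fits that took account of lane or tissue markers. All 8 AB1 IPL libraries were in lane 3, so with lane as a covariate the site difference rests on the 2 SC tumors of that lane. When lane was a covariate, the 17 members kept their direction and 1, Fabp5, kept its call, with 14 members at an unadjusted p under 0.05 against 23 without lane, and among all genes the calls fell from 3374 to 386. Within lane 3, with 8 IPL and 2 SC tumors, Fabp5 was again the member called, with 169 genes called in all, and the 17 again kept their direction, with 8 at an unadjusted p under 0.05 among all members. With the summed markers of skeletal muscle, heart muscle and white adipocytes as covariates, 2 members were called, Pdk4 and Fabp5, 11 had an unadjusted p under 0.05, and all 17 kept their direction. In that fit 774 of all 14645 genes (5.29%) were called. Without the 4 AB1 IPL tumors of the highest muscle marker sums (replicates 1, 3, 4 and 7), 8 members were called, with 2023 of all 14942 genes (13.5%). Of the IPL tumors kept, replicates 5, 6 and 8 had muscle sums of 1589, 1113 and 563 CPM, and replicate 2 had 113 CPM. The highest AB1 SC sum was 515 CPM, so this fit does not remove the muscle difference. In AE17 no member was called with lane as a covariate, within lane 1 (3 IPL and 8 SC tumors) or with the marker sums as covariates, where 2, 4 and 5 members had an unadjusted p under 0.05 and 1, 14 and 23 genes of the whole table were called. The AE17 fit with lane likewise rests on the 3 IPL tumors of lane 1.

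Of the 5 uptake members, 3 were higher and 1 lower in AB1 IPL tumors, and 0 changed in AE17. Lpl (chr8:68880491-68907448, forward strand of GRCm38), the lipase that releases fatty acids from lipoproteins, ranged from 13.5 to 99.8 CPM (median 39.3) in AB1 IPL tumors and from 14.6 to 28.3 CPM (median 21.1) in AB1 SC tumors. It was 2.36-fold higher in IPL tumors (log2 fold change 1.24 ± 0.34 SE, adjusted p = 0.0138), with 6 of the 8 IPL tumors above every SC tumor and 1 below all of them. In AE17 it ranged from 18.5 to 265 CPM (median 39.6) in IPL tumors and from 21.99 to 199 CPM (median 68.1) in SC tumors, with overlapping groups (log2 fold change -0.29 ± 0.54 SE, adjusted p = 0.78). The highest IPL value was that of AE17 IPL replicate 5, the tumor high in adipocyte markers, and the next was 49.0 CPM. Without that tumor the AE17 log2 fold change was -1.13 (adjusted p = 0.0644), and without AE17 SC replicate 6 it was 0.064. With the marker sums as covariates the AB1 log2 fold change was 0.13 (adjusted p = 0.781). The difference between the models did not pass (1.55 ± 0.66 SE, adjusted p = 0.0981), but did when AE17 IPL replicate 5 was left out (adjusted p = 0.00188). Any part of the muscle and fat markers in these values was not tested further. Angptl4, a secreted inhibitor of lipoprotein lipase, ranged from 88.8 to 211 CPM (median 124) in AB1 IPL, 82.4 to 122 CPM (median 101) in AB1 SC, 109 to 183 CPM (median 135) in AE17 IPL and 62.4 to 133 CPM (median 99.8) in AE17 SC tumors. Of the IPL tumors, 4 of 8 lay above every SC tumor in each model, and neither difference passed the test (0.40 in AB1, adjusted p = 0.107, and 0.47 in AE17, adjusted p = 0.0659). The AE17 difference passed without AE17 SC replicate 1 or 3, with a lowest adjusted p of 0.0326.

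Cd36, a membrane protein that takes up long-chain fatty acids, ranged from 15.99 to 85.2 CPM (median 37.1) in AB1 IPL tumors and from 17.8 to 25.4 CPM (median 19.7) in AB1 SC tumors. The difference passed the test (log2 fold change 0.96 ± 0.28 SE, adjusted p = 0.0174), with 5 IPL tumors above all SC tumors and 1 below them. In AE17, Cd36 ranged from 16.1 to 188 CPM (median 21.9) in IPL and from 17.7 to 60.5 CPM (median 28.6) in SC tumors and did not pass (log2 fold change 0.40 ± 0.52 SE, adjusted p = 0.671). AE17 IPL replicate 5 was again highest, with 32.3 CPM in the next tumor, and without it the log2 fold change turned to -0.57. The difference between the models passed without that tumor (adjusted p = 0.00507) and did not pass with it (0.58 ± 0.60 SE, adjusted p = 0.542). The marker sums as covariates left a log2 fold change of 0.16 (adjusted p = 0.796) in AB1.

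Fabp3 and Fabp5, fatty acid binding proteins of the cytosol, moved in opposite directions in AB1. Fabp3 (chr4:130308595-130315463, forward strand), the form known from heart and skeletal muscle, ranged from 0.958 to 25.03 CPM (median 7.46) in AB1 IPL tumors and from 0.181 to 0.758 CPM (median 0.440) in AB1 SC tumors, where it had between 3 and 13 counts. The groups did not overlap, and Fabp3 was 21.6-fold higher in IPL tumors (log2 fold change 4.44 ± 0.66 SE, adjusted p = 0.000189). Its AE17 values ran from 0.455 to 8.16 CPM (median 2.39) in IPL tumors and from 0.407 to 2.21 CPM (median 1.43) in SC tumors, and the difference did not pass (log2 fold change 1.05 ± 0.51 SE, adjusted p = 0.214). The effects differed between models by 3.40 ± 0.85 (SE, adjusted p = 0.00508). Fabp3 was highest in the AB1 IPL tumors with the most muscle markers, at 15.7, 18.5 and 25.03 CPM in replicates 1, 3 and 4 with muscle sums of 3194, 4697 and 4536 CPM, and lowest in replicate 2, at 0.958 CPM with a sum of 113 CPM. With the marker sums as covariates its log2 fold change was 1.15 (adjusted p = 0.124), and without the 4 tumors highest in muscle markers 2.32 (adjusted p = 0.00263).

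Fabp5 (chr3:10012548-10016607, forward strand), the form known from epidermis, macrophages and many tumors, ranged from 13.5 to 30.9 CPM (median 21.2) in AB1 IPL tumors and from 38.4 to 69.98 CPM (median 52.7) in AB1 SC tumors. Every IPL tumor was below every SC tumor (log2 fold change -1.35 ± 0.17 SE, adjusted p = 3.92e-05). In the AE17 tumors its level ranged from 47.4 to 71.4 CPM (median 67.01) in IPL and from 34.7 to 80.9 CPM (median 55.1) in SC tumors, with full overlap (log2 fold change 0.17 ± 0.15 SE, adjusted p = 0.497), and the difference of the effects was -1.50 ± 0.23 (SE, adjusted p = 6.5e-05). The fall in AB1 was -1.35 (adjusted p = 0.00784) with lane as a covariate, -1.39 (adjusted p = 0.0252) within lane 3, -1.17 (adjusted p = 0.0172) with the marker sums as covariates and -1.18 (adjusted p = 0.00278) without the 4 tumors highest in muscle markers. In AB1 IPL tumors 3 of the 6 macrophage markers with a row were also lower, and their summed level ranged from 1104 to 1936 CPM in IPL and from 1399 to 2242 CPM in SC tumors. Their part in the fall of Fabp5 was not tested.

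**Figure D2:**
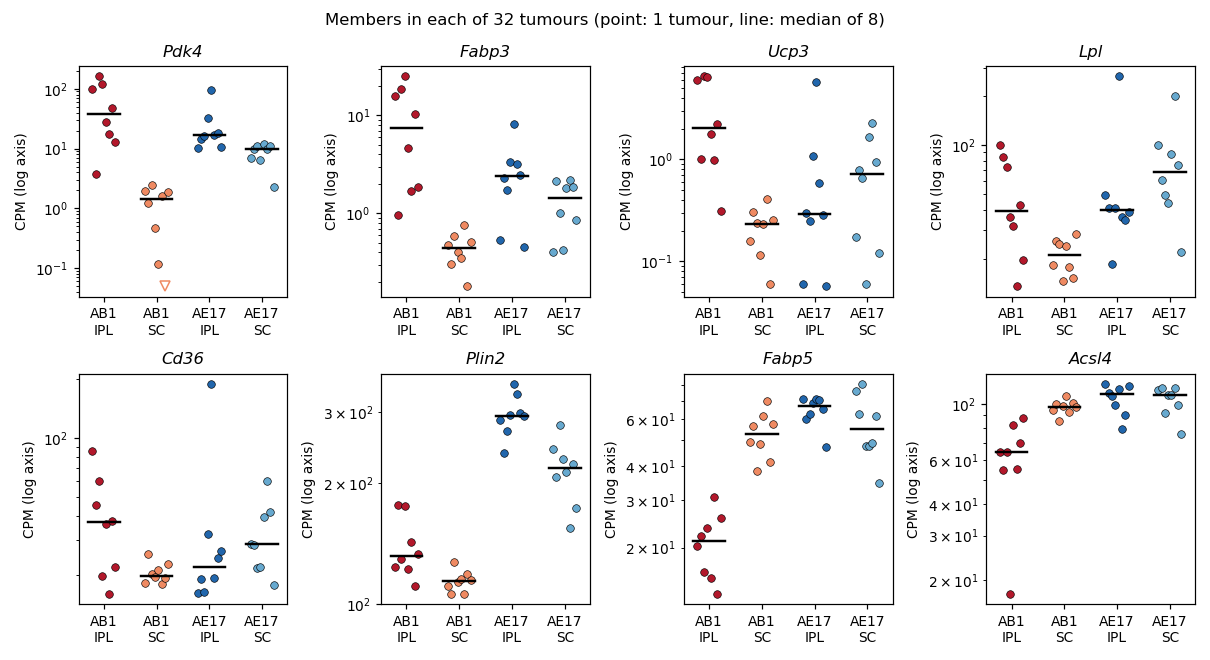
CPM on a log axis of 8 members in each of the 32 tumors, by group, with 1 point per tumor and a line at the median of 8. Pdk4, Fabp3 and Fabp5 show AB1 IPL and AB1 SC groups without overlap, and an open triangle marks the AB1 SC tumor with a Pdk4 count of 0.

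Among the acyl-CoA synthetases, Acsl4 fell in AB1. Acsl4, which prefers arachidonic acid, ranged from 17.6 to 87.8 CPM (median 64.6) in AB1 IPL tumors and from 85.7 to 107 CPM (median 97.5) in AB1 SC tumors (log2 fold change -0.66 ± 0.20 SE, adjusted p = 0.0258). Of the IPL tumors, 7 were below every SC tumor, and the lowest value, in replicate 4, lay far below the next of 54.6 CPM. In AE17 it ranged from 79.2 to 119.9 CPM (median 109) in IPL and from 75.9 to 116 CPM (median 109) in SC tumors (log2 fold change 0.019 ± 0.10 SE, adjusted p = 0.925), and the difference between models was -0.66 ± 0.24 (SE, adjusted p = 0.0452). Without AB1 IPL replicate 2 the adjusted p in AB1 was 0.0524, and the difference between models lost its call without any 1 of 23 of the 32 tumors, with a highest adjusted p of 0.0771. Acsl1 and Acsl3 did not pass in either model, with log2 fold changes of 0.055 and -0.39 in AB1 and 0.34 and -0.10 in AE17. The AE17 value of Acsl1 turned to -0.20 without AE17 IPL replicate 5, which stood at 169 CPM with 45.02 CPM in the next tumor. Acsl3 was called in AB1 without AB1 IPL replicate 8 (adjusted p = 0.0255).

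Plin2 (chr4:86648386-86670060, reverse strand), the protein that coats lipid droplets in most cells, was higher in IPL tumors of both models. It ranged from 111 to 176 CPM (median 132) in AB1 IPL tumors and from 106 to 127 CPM (median 114) in AB1 SC tumors (log2 fold change 0.27 ± 0.092 SE, adjusted p = 0.0415), with 5 IPL tumors above every SC tumor. Its range in AE17 was from 237 to 352 CPM (median 294) in IPL and from 154 to 278 CPM (median 218) in SC tumors (log2 fold change 0.46 ± 0.10 SE, adjusted p = 0.0218), with 6 IPL tumors above every SC tumor. The difference between the models in this effect did not pass (-0.17 ± 0.14 SE, adjusted p = 0.428). In AB1 the highest Plin2 value was that of IPL replicate 2, the IPL tumor lowest in muscle markers (113 CPM). The same tumor had 359.9 CPM of white adipocyte markers, second to replicate 1, and the highest AB1 sum of mesothelium markers (283 CPM, next 118) and the highest AB1 IPL sum of macrophage markers (1936 CPM). Their part in its Plin2 level was not tested. The AB1 call was lost without any 1 of AB1 IPL replicates 4 and 6 and AB1 SC replicates 1, 2, 4, 5, 7 and 8, with a highest adjusted p of 0.0984. With the marker sums as covariates the log2 fold changes were 0.35 (adjusted p = 0.137) in AB1 and 0.29 (adjusted p = 0.428) in AE17.

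The other 3 storage and lipolysis members release fatty acids from stored fat. Pnpla2, the first lipase of triglyceride breakdown, ranged from 62.7 to 134 CPM (median 84.1) in AB1 IPL, 73.9 to 99.8 CPM (median 90.3) in AB1 SC, 47.95 to 186 CPM (median 54.8) in AE17 IPL and 27.2 to 56.1 CPM (median 39.5) in AE17 SC tumors, and the site difference passed in neither model (-0.036, adjusted p = 0.868, and 0.77, adjusted p = 0.093). The highest AE17 value was in IPL replicate 5, followed by 60.7 CPM, and 4 AE17 IPL tumors were above every SC tumor. Abhd5, the activator of Pnpla2, ranged from 24.7 to 39.8 CPM (median 31.3) in AB1 IPL tumors and from 24.1 to 29.3 CPM (median 26.9) in AB1 SC tumors and was higher in IPL tumors (log2 fold change 0.25 ± 0.083 SE, adjusted p = 0.0348), a call that was lost without any 1 of AB1 IPL replicates 1, 3 and 4 and AB1 SC replicates 2, 4, 6, 7 and 8, with a highest adjusted p of 0.0710. Its AE17 values ran from 27.7 to 44.05 CPM (median 29.9) in IPL and from 29.4 to 36.5 CPM (median 34.4) in SC tumors (log2 fold change -0.12 ± 0.087 SE, adjusted p = 0.424), and the effects differed by 0.39 ± 0.12 (SE, adjusted p = 0.0208). Mgll, which cleaves monoglycerides, did not pass (0.67 in AB1, adjusted p = 0.0872, or 0.0397 without AB1 IPL replicate 8, and 0.46 in AE17). The AE17 value turned to -0.29 without AE17 IPL replicate 5, which stood at 49.97 CPM with 9.19 CPM in the next tumor.

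Of the 4 members of the carnitine shuttle with a row, 3 were higher in AB1 IPL tumors and 0 changed in AE17. Cpt2, the carnitine palmitoyltransferase of the inner mitochondrial membrane, ranged from 26.5 to 34.7 CPM (median 30.8) in AB1 IPL tumors and from 22.4 to 26.5 CPM (median 24) in AB1 SC tumors, without overlap (log2 fold change 0.32 ± 0.074 SE, adjusted p = 0.00415). In AE17 it ranged from 41.7 to 58.97 CPM (median 45.5) in IPL and from 38.3 to 50.5 CPM (median 45.8) in SC tumors (log2 fold change 0.044 ± 0.072 SE, adjusted p = 0.744). Crat, the carnitine acetyltransferase, ranged from 49.2 to 94.2 CPM (median 64.1) in AB1 IPL tumors and from 43.8 to 53.96 CPM (median 47.3) in AB1 SC tumors (log2 fold change 0.47 ± 0.12 SE, adjusted p = 0.0078), and 5 IPL tumors were above every SC tumor. In AE17 its ranges were 35.2 to 70.03 CPM (median 36.7) in IPL and 37.8 to 65.1 CPM (median 43.8) in SC tumors (log2 fold change -0.13 ± 0.15 SE, adjusted p = 0.614). The effects differed between models by 0.30 for Cpt2 (adjusted p = 0.033, lost without any 1 of AB1 SC replicates 2, 5 and 6, AE17 IPL replicate 2 and AE17 SC replicate 6, with a highest adjusted p of 0.0555) and by 0.63 for Crat (adjusted p = 0.0199). With the marker sums as covariates the AB1 log2 fold change of Crat was 0.083 (adjusted p = 0.774). Slc25a20, the carrier that exchanges acylcarnitine for carnitine, was higher in AB1 IPL tumors (log2 fold change 0.22 ± 0.063 SE, adjusted p = 0.0181), with an adjusted p of 0.0518 without AB1 IPL replicate 4. Cpt1b, the outer-membrane transferase known from muscle, was low, at 0.350 to 2.10 CPM (median 1.11) in AB1 IPL, 0.524 to 1.36 CPM (median 0.864) in AB1 SC, 1.06 to 3.09 CPM (median 1.55) in AE17 IPL and 0.606 to 1.56 CPM (median 1.33) in AE17 SC tumors, and did not pass in either model (0.42, adjusted p = 0.347, and 0.60, adjusted p = 0.141). The AB1 value turned to -0.81 (adjusted p = 0.167) with the marker sums as covariates and to -0.41 (adjusted p = 0.37) without the 4 tumors highest in muscle markers.

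In mitochondrial beta-oxidation, 4 of 7 members were higher in AB1 IPL tumors, Acadvl, Acads, Hadha and Hadh. Acadvl, the dehydrogenase of very long chains, ranged from 34.7 to 57.8 CPM (median 45.99) in AB1 IPL tumors and from 30.6 to 32.9 CPM (median 31.9) in AB1 SC tumors, without overlap (log2 fold change 0.50 ± 0.10 SE, adjusted p = 0.00166). In the AE17 tumors its level ranged from 34.6 to 63.2 CPM (median 38.4) in IPL and from 36.2 to 46.8 CPM (median 42.1) in SC tumors (log2 fold change -0.0071 ± 0.11 SE, adjusted p = 0.976), and the effects differed by 0.52 ± 0.15 (SE, adjusted p = 0.0127). Of its 2686 exonic bases, 1151 are shared with Dvl2 on the other strand, and whether counting used strand is not stated in the sources used here. Acads, the short-chain dehydrogenase, ranged from 29.7 to 51.5 CPM (median 36.6) in AB1 IPL, 27.1 to 32.98 CPM (median 29.4) in AB1 SC, 44.2 to 53.4 CPM (median 47.9) in AE17 IPL and 43.5 to 62.7 CPM (median 47.1) in AE17 SC tumors. It was higher in AB1 IPL tumors (log2 fold change 0.34 ± 0.11 SE, adjusted p = 0.0295), but the call was lost without any 1 of AB1 IPL replicates 1, 3 and 4 and AB1 SC replicates 1, 5 and 7, with a highest adjusted p of 0.0655. The effects differed between models by 0.37 ± 0.13 (SE, adjusted p = 0.0443), a call lost without any 1 of 19 of the 32 tumors.

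Hadh, the dehydrogenase of short and medium hydroxyacyl chains, ranged from 68.5 to 99.8 CPM (median 76.5) in AB1 IPL tumors and from 58.4 to 67.9 CPM (median 63.4) in AB1 SC tumors, without overlap (log2 fold change 0.35 ± 0.081 SE, adjusted p = 0.00478). In AE17 it ranged from 39.1 to 65.6 CPM (median 43.01) in IPL and from 36.01 to 77.7 CPM (median 56.2) in SC tumors (log2 fold change -0.27 ± 0.14 SE, adjusted p = 0.223), and the effects differed by 0.64 ± 0.16 (SE, adjusted p = 0.00553). Hadha was higher in AB1 IPL tumors (log2 fold change 0.24 ± 0.056 SE, adjusted p = 0.00453), at 137 to 173 CPM against 124 to 134 CPM in SC tumors. Its divergent neighbor Hadhb did not pass (log2 fold change 0.085 ± 0.079 SE, adjusted p = 0.466). In AE17 the pair had log2 fold changes of -0.0022 and -0.10, neither of which passed, and the effects differed between models for Hadha (0.26 ± 0.077 SE, adjusted p = 0.0146). Acadl, the long-chain dehydrogenase, changed in AE17 only by these calls, although the difference between the models did not pass (-0.29 ± 0.11 SE, adjusted p = 0.0515). That difference was called without any 1 of AB1 IPL replicates 1 and 3, AE17 IPL replicates 2, 3 and 6 and AE17 SC replicates 3, 4 and 7, with a lowest adjusted p of 0.0259. It ranged from 98.4 to 155 CPM (median 112) in AE17 IPL tumors and from 77.1 to 100.3 CPM (median 92.1) in AE17 SC tumors (log2 fold change 0.36 ± 0.084 SE, adjusted p = 0.0237), with 7 IPL tumors above every SC tumor, and from 87.5 to 125 CPM (median 103) in AB1 IPL and 93.5 to 106 CPM (median 98.1) in AB1 SC tumors (log2 fold change 0.057 ± 0.065 SE, adjusted p = 0.558). The AE17 call was lost without AE17 IPL replicate 4 or 7, with a highest adjusted p of 0.0511. Acadm, the medium-chain dehydrogenase, had log2 fold changes of 0.049 and -0.10 and did not pass.

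The enzymes that handle double bonds, Decr1 and Eci2, did not pass in AB1 (0.20, adjusted p = 0.0909, and 0.20, adjusted p = 0.0873) or in AE17 (0.051 and -0.11). The site effect of Eci2 differed between the models (0.33 ± 0.12 SE, adjusted p = 0.0393), a call lost without any 1 of 15 of the 32 tumors, with a highest adjusted p of 0.0692. Without 1 tumor each, AB1 SC replicate 6 for Decr1 and AB1 IPL replicate 5 for Eci2, the AB1 differences passed (adjusted p = 0.038 and 0.0288). Of the peroxisomal enzymes, Hsd17b4, the bifunctional protein of peroxisomal oxidation, was higher in AB1 IPL tumors (log2 fold change 0.24 ± 0.071 SE, adjusted p = 0.0192), with 7 of them above every SC tumor, and was -0.062 in AE17 (adjusted p = 0.502). The effects differed by 0.32 ± 0.088 (SE, adjusted p = 0.00968). Acaa1a and Ehhadh, a thiolase and a second bifunctional protein, did not pass, and Ehhadh was low, at 0.467 to 2.93 CPM (median 1.38) in AB1 IPL, 1.16 to 2.27 CPM (median 1.67) in AB1 SC, 1.423 to 12.02 CPM (median 1.99) in AE17 IPL and 1.16 to 2.50 CPM (median 1.90) in AE17 SC tumors. Its log2 fold changes were -0.22 in AB1 and 0.72 in AE17, and the latter was -0.021 without AE17 IPL replicate 5, which held its highest value, with 2.41 CPM in the next IPL tumor.

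Of the electron transfer genes, Etfdh, the dehydrogenase that passes electrons from the transfer flavoprotein to ubiquinone, was higher in AB1 IPL tumors (log2 fold change 0.24 ± 0.084 SE, adjusted p = 0.0456). That call was lost without any 1 of 10 of the 16 AB1 tumors (AB1 IPL replicates 1, 2, 3 and 7 and AB1 SC replicates 2 to 7), with a highest adjusted p of 0.0923. Etfa and Etfb, the 2 subunits of the flavoprotein, did not pass in AB1 (0.065 and 0.24) or in AE17 (-0.083 and 0.17). Of the 1164 exonic bases of Etfb, 617 are shared with Gm45233 on the same strand. Etfb passed in AB1 without AB1 IPL replicate 5 (adjusted p = 0.047).

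Pdk4 (chr6:5483351-5496309, reverse strand), the kinase that switches off pyruvate dehydrogenase and so turns a cell from glucose to fatty acids, had the largest difference of the members tested in both models, in AE17 only with AE17 IPL replicate 5, without which Lpl was larger in size (-1.13 against 0.97). It ranged from 3.78 to 161 CPM (median 38.02) in AB1 IPL tumors and from 0 to 2.47 CPM (median 1.422) in AB1 SC tumors, where 1 tumor had 0 counts, which allows up to 3 counts. The groups did not overlap, and the fitted difference was 49.6-fold (log2 fold change 5.63 ± 0.82 SE, adjusted p = 0.000186). Its range in AE17 was from 10.1 to 93.7 CPM (median 16.8) in IPL and from 2.30 to 11.96 CPM (median 9.88) in SC tumors, 3.09-fold higher in IPL tumors (log2 fold change 1.63 ± 0.46 SE, adjusted p = 0.048), with 6 IPL tumors above every SC tumor. The effect was larger in AB1 by 4.03 ± 0.90 (SE, adjusted p = 0.00249). In the AB1 IPL tumors Pdk4 was 98.01, 161 and 122 CPM in replicates 1, 3 and 4, which had 3194, 4697 and 4536 CPM of muscle markers, and 3.78 CPM in replicate 2 with 113 CPM, the lowest of both. The highest SC value, 2.47 CPM, was in a tumor with 338 CPM of muscle and 31.2 CPM of white adipocyte markers, and IPL replicate 2 had 359.9 CPM of the latter. The part of either tissue in these values was not tested. In AB1 the log2 fold change was 2.16 (adjusted p = 0.00558) with the marker sums as covariates, 3.66 (adjusted p = 0.00595) without the 4 tumors highest in muscle markers, 5.27 (adjusted p = 0.0831) with lane as a covariate and 5.21 (adjusted p = 0.188) within lane 3. In AE17 it was 0.97 without AE17 IPL replicate 5, 0.81 (adjusted p = 0.332) within lane 1 and 0.87 (adjusted p = 0.335) with the marker sums as covariates. The AE17 call was lost without any 1 of AE17 IPL replicates 2 to 7 or AE17 SC replicates 2, 4, 5, 6, 7 and 8, with a highest adjusted p of 0.0874.

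**Figure D3:**
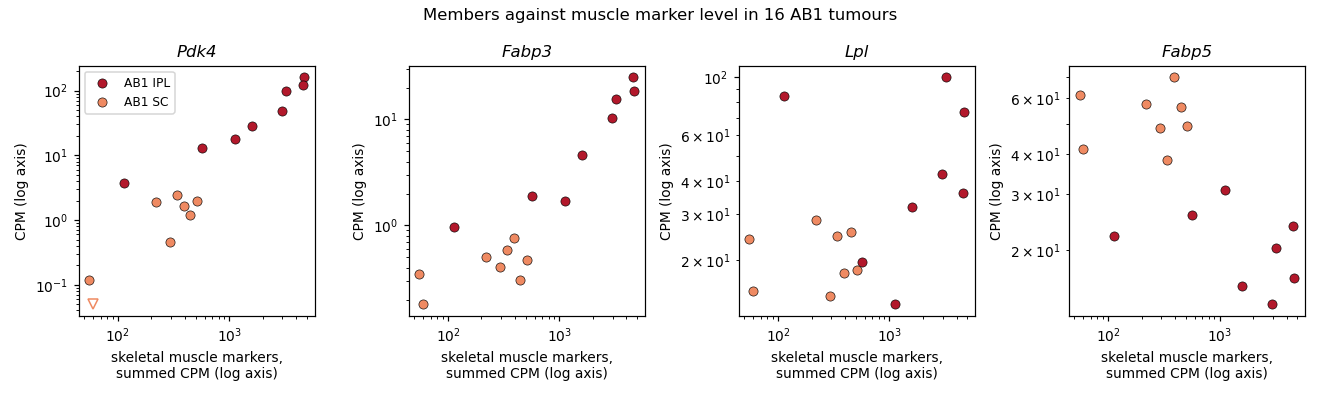
CPM of 4 members against the summed CPM of 10 skeletal muscle markers in the 16 AB1 tumors, both on log axes, with 1 point per tumor and an open triangle for a count of 0. Pdk4 and Fabp3 were highest in the IPL tumors with the 4 highest muscle sums, while Fabp5 was lower in every IPL tumor than in the SC tumors.

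The uncoupling proteins carry ions across the inner mitochondrial membrane. Ucp2, found in many tissues, ranged from 192 to 356 CPM (median 251) in AB1 IPL, 242 to 375 CPM (median 282) in AB1 SC, 197 to 258 CPM (median 221) in AE17 IPL and 107 to 268 CPM (median 213) in AE17 SC tumors and did not pass in either model (-0.19 and 0.10). Ucp3, known from skeletal muscle and brown fat, lies 6904 bases upstream of Ucp2 on chromosome 7. It ranged from 0.313 to 6.52 CPM (median 2.01) in AB1 IPL tumors and from 0.0603 to 0.408 CPM (median 0.234) in AB1 SC tumors, where it had between 1 and 7 counts, and 7 IPL tumors were above every SC tumor. In AE17 it ranged from 0.0569 to 5.68 CPM (median 0.292) in IPL and from 0.0602 to 2.27 CPM (median 0.725) in SC tumors. It was too low for the fits within a model, and in the fit of all 32 tumors its site effect was more positive in AB1 by 3.48 ± 1.08 (SE, adjusted p = 0.0213). The highest values were those of AB1 IPL replicates 1, 3 and 4, at 5.94, 6.52 and 6.36 CPM, the 3 AB1 tumors with the most muscle markers, followed by AE17 IPL replicate 5 at 5.68 CPM. Without AE17 SC replicate 6 the adjusted p of the difference between models was 0.0513. With the marker sums as covariates the difference between models was 0.74 (adjusted p = 0.603).

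At the SC site, AB1 and AE17 tumors differed in 19 of the 33 members tested (3 higher and 16 lower in AB1), where 63.7% of all 14718 genes differed (31.2% higher and 32.5% lower). At the IPL site 15 of 34 differed (6 higher and 9 lower in AB1), where 59.1% of all 14886 genes did (30.5% higher and 28.6% lower). Over both directions the members' shares, 57.6% and 44.1%, were below those of the whole table, whereas the 16 of 33 that were lower in AB1 at the SC site are a larger share than the 32.5% of all genes. Cell line, strain, cell number and lane cannot be told apart here. Median skeletal muscle sums were 315 CPM in AB1 and 613 in AE17 SC tumors, and 2273 and 558 CPM in IPL tumors. Of the 10 muscle markers, 2 were lower in AB1 at the SC site and 7 higher at the IPL site, with 0 the other way. Median white adipocyte sums were 15.9 and 49.4 CPM in SC and 102 and 20.2 CPM in IPL tumors. The part of such tissue in the differences between models was not tested. Plin2 was lower in AB1 at both sites, with log2 fold changes of -0.92 ± 0.091 (SE, adjusted p = 9.27e-08) in SC tumors and -1.07 ± 0.11 (SE, adjusted p = 1.53e-07) in IPL tumors, with groups that did not overlap at either site. Between the models, groups did not overlap for 10 of 33 members in SC tumors, where 31.4% of all genes did not, and for 6 of 34 members in IPL tumors, where 28.5% of all genes did not. Decr1, which ranged from 30.7 to 41.8 CPM (median 36.4) in AB1 SC and 55.7 to 69.5 CPM (median 61.7) in AE17 SC tumors, was lower in AB1 (-0.80 ± 0.062 SE, adjusted p = 3.76e-09), and in IPL tumors it was 35.98 to 51.4 CPM (median 40.1) against 57.99 to 79.7 CPM (median 61.7) (-0.61 ± 0.087 SE, adjusted p = 1.07e-05). Acaa1a ranged from 39.5 to 53.2 CPM (median 47.1) in AB1 SC and from 74.8 to 95.2 CPM (median 83.8) in AE17 SC tumors (-0.86 ± 0.066 SE, adjusted p = 3.65e-09), and from 41.8 to 67.05 CPM (median 53.2) in AB1 IPL and 71.5 to 92.02 CPM (median 82.1) in AE17 IPL tumors (-0.57 ± 0.10 SE, adjusted p = 5.33e-05). Cpt2 was lower in AB1 at both sites, with -0.92 ± 0.062 (SE, adjusted p = 6.42e-10) in SC and -0.59 ± 0.083 (SE, adjusted p = 9.52e-06) in IPL tumors. These genes, and Fabp5 in IPL tumors (-1.60 ± 0.15 SE, adjusted p = 8.42e-08), had groups without overlap.

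Pnpla2 was higher in AB1 SC than in AE17 SC tumors (1.09 ± 0.12 SE, adjusted p = 4.81e-07) and did not pass in IPL tumors (0.33 ± 0.27 SE, adjusted p = 0.312), where it was called without AE17 IPL replicate 5 (adjusted p = 0.00028). Hadh was higher in AB1 IPL tumors (0.86 ± 0.12 SE, adjusted p = 5.43e-06), without overlap, and was 0.19 ± 0.11 (SE, adjusted p = 0.142) in SC tumors, where it was called without AE17 SC replicate 8 (adjusted p = 0.017). Pdk4, Lpl, Fabp3, Acads and Cd36 were lower in AB1 at the SC site, with log2 fold changes of -2.83 ± 0.50 (SE, adjusted p = 9.36e-05), -1.94 ± 0.34 (SE, adjusted p = 0.0001), -1.59 ± 0.38 (SE, adjusted p = 0.00136), -0.74 ± 0.074 (SE, adjusted p = 1.13e-07) and -0.68 ± 0.21 (SE, adjusted p = 0.00922). In IPL tumors Fabp3 was higher in AB1 (1.84 ± 0.68 SE, adjusted p = 0.0285), whereas Pdk4 and Lpl did not pass (1.22, adjusted p = 0.141, and -0.38, adjusted p = 0.577), and Pdk4 was called without AE17 IPL replicate 5 (adjusted p = 0.0233). The Fabp3 call was lost without AB1 IPL replicate 3 or 4 or AE17 IPL replicate 3, with a highest adjusted p of 0.0770. Acsl4 and Crat changed in opposite directions in IPL tumors (-0.74 ± 0.21 SE, adjusted p = 0.00637 and 0.72 ± 0.17 SE, adjusted p = 0.00136). Ehhadh was lower in AB1 IPL tumors (-1.12 ± 0.47 SE, adjusted p = 0.0499). The log2 fold change was -0.38 without AE17 IPL replicate 5, and the call was lost without it or any 1 of AE17 IPL replicate 3 and AB1 IPL replicates 1 and 3 to 8, with a highest adjusted p of 0.269.

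Per length of their exons, taken from GENCODE M21, the members covered a wide range of levels. The length is the union of all exons annotated for a gene and can exceed that of its transcripts, so ranks between members depend on the annotation. In AB1 IPL tumors the highest medians were those of Etfa at 52.9, Acadl at 51.2 and Plin2 at 37.5 RPKM, the CPM divided by exon length in kilobases. In AE17 SC tumors they were Plin2 at 62.1, Etfa at 50.4 and Acadl at 45.9 RPKM. Cpt1b, Ehhadh and Ucp3 were the lowest in both groups, at 0.331, 0.462 and 0.641 RPKM in AB1 IPL tumors. Pdk4 stood at 10.8 RPKM in AB1 IPL, 0.405 in AB1 SC, 4.78 in AE17 IPL and 2.81 in AE17 SC tumors. Fabp3 stood at 9.06, 0.534, 2.91 and 1.73 RPKM in the same order. The median of Fabp5 was above that of Fabp3 per length in AB1 SC tumors (14.8 RPKM) and below it in AB1 IPL tumors (5.95 RPKM), where Fabp5 was still above Fabp3 in replicates 2, 6 and 8. That order rests on the lengths used, 3567 bases for Fabp5 and 823 for Fabp3. By CPM the AB1 IPL median of Fabp5 (21.2) was above that of Fabp3 (7.46).

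**Figure D4:**
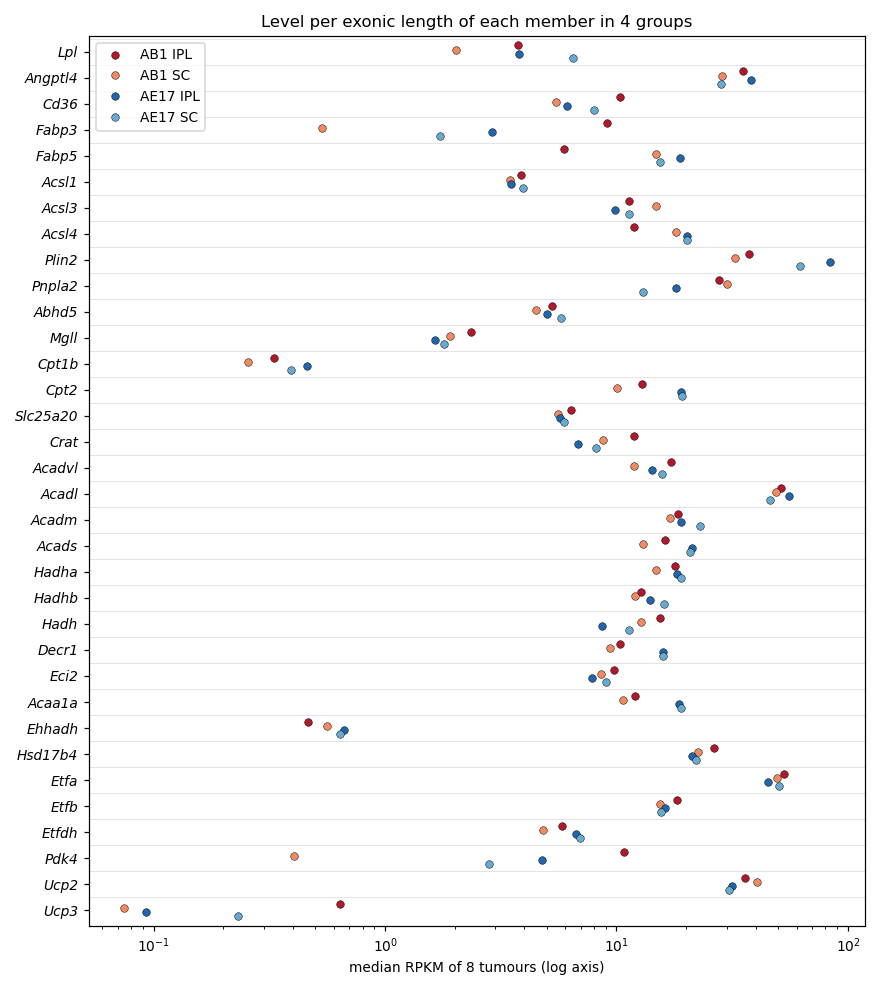
Median RPKM of 8 tumors on a log axis (horizontal) for each member (vertical) in the 4 groups, with 1 point per group. Lengths are unions of all annotated exons, so the order of different members depends on the annotation. Pdk4, Fabp3 and Ucp3 are spread most widely between groups, while Etfa lies between 45.1 and 52.9 RPKM in all 4.

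Other genes of the pathway were taken from 7 lists of 84 genes, of which 74 had a row and 65 were tested in AB1. There 16 were higher and 1 lower in IPL tumors, beside 12.3% and 10.7% of all genes. In AE17 1 of 64 was higher and 0 lower, beside 2.60% and 3.13% of all genes. The median log2 fold change over the lists was 0.13 in AB1 and 0.022 in AE17. Of the 14 other storage and lipolysis genes tested in AB1, 5 were higher, among them Gpam, which starts triglyceride synthesis (0.92 ± 0.12 SE, adjusted p = 8.75e-05), Lpin3, a phosphatidate phosphatase (0.51 ± 0.085 SE, adjusted p = 0.00045), and Plin4, a droplet protein of adipocytes (2.49 ± 0.65 SE, adjusted p = 0.0106). Of 18 other oxidation genes 5 were higher, among them Ech1 (0.46 ± 0.091 SE, adjusted p = 0.00144), Acad11 (0.50 ± 0.13 SE, adjusted p = 0.0091) and Acat1 (0.23 ± 0.064 SE, adjusted p = 0.0156). Of 9 other uptake and binding genes, Fabp4, the binding protein of adipocytes and macrophages, was higher (1.45 ± 0.35 SE, adjusted p = 0.00609) and Slc27a6, a transporter, was lower (-1.62 ± 0.32 SE, adjusted p = 0.00158). Fabp4 and Plin4 are known from adipocytes, whose markers were also higher in AB1 IPL tumors, and the part of such cells in these values was not tested. The kinase Pdk2 was the 1 of 7 pyruvate dehydrogenase genes that changed (1.65 ± 0.28 SE, adjusted p = 0.000559). In synthesis and desaturation, Acacb, whose product malonyl-CoA restrains the carnitine shuttle (1.46 ± 0.29 SE, adjusted p = 0.00172), and Me1, a source of NADPH (0.37 ± 0.079 SE, adjusted p = 0.00246), were the 2 of 9 that changed. Skeletal muscle markers were also higher in AB1 IPL tumors, 9 of 10, and the part of muscle in the AB1 values of these lists was not tested. In AE17 the 1 gene was Acad10 (0.35 ± 0.090 SE, adjusted p = 0.0331).

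Of the receptors, Ppard was higher in AB1 IPL tumors (0.26 ± 0.085 SE, adjusted p = 0.0323) and was 0.21 ± 0.073 (SE, adjusted p = 0.0874) in AE17. Ppara was too low to be tested, with means between 0.0353 and 0.421 CPM in the 4 groups. Pparg did not pass (-0.079 ± 0.22 SE, adjusted p = 0.829 in AB1 and 0.51 ± 0.37 (SE, adjusted p = 0.405) in AE17). Their partner Rxra did not pass either (0.22 ± 0.11 SE, adjusted p = 0.157 in AB1 and -0.28 ± 0.083 (SE, adjusted p = 0.0547) in AE17). The coactivators Ppargc1a and Ppargc1b did not pass in AB1 (0.13 ± 0.28 SE, adjusted p = 0.763 and -0.29 ± 0.14 SE, adjusted p = 0.143). In AE17 Ppargc1a was not tested and Ppargc1b did not pass (0.19 ± 0.12 SE, adjusted p = 0.357).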

How the data were processed

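The authors extracted RNA from whole tumors, sequenced poly(A)-selected libraries as single-end reads, aligned them with HISAT2 2.0.4 (base calls with bcl2fastq 1.8.4, both per the processing notes of the submitters) and deposited raw counts per gene, summed over gene models. Whether counting used strand is not given in the sources used here. The table holds 39676 Ensembl gene identifiers for 32 libraries. Of these, 39495 matched GENCODE M21 (GRCm38) when the version was ignored and 36719 when it was kept. Symbols come from the table, exon lengths and coordinates from that annotation, and promoter sequences from RefSeq on GRCm38.p6.

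Counts were tested with the quasi-likelihood F test of edgeR 4.0.16 (R 4.3.3), two-sided, with filterByExpr, TMM factors and robust dispersion, on the 16 tumors of each comparison, or all 32 for the difference of the site effects. A gene was called at a Benjamini-Hochberg adjusted p under 0.05 over all genes tested. The log2 fold change is that of the first group named over the second, and its standard error is its size divided by the square root of F. CPM use TMM factors over the 32 libraries. Depth lay between 15432258 and 20649645 counts, and fewer than 3 counts were read as not detected. Errors are those between mice. The fit was tested on simulated counts with known changes. Figures were drawn with matplotlib 3.10.9.

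Members and lists were chosen with earlier results of these data known. Values in every group are given for 10 members in any case and for up to 10 called members of largest change per comparison, and up to 3 called genes are named per pathway list. Alternatives were DESeq2 1.42.0, its size factors, total counts, no filter, at least 10 counts in every tumor, a log2 fold change of at least 1, lane or marker sums (log2 of summed CPM plus 1) as covariates, 1 lane, a replicate block, all 32 tumors in 1 fit and leaving out each tumor. Leaving out the tumors highest in tissue markers (4 in AB1, and AE17 IPL replicate 5) was chosen after seeing the data. Cpt1a, Acaa2, Acsl5 and Eci1 are not analysed here.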

Additional observations from a re-analysis of the deposited data

Results flagged for a closer look

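Tumors that stood apart within their group of 8 were sought with Dixon's ratio on log2 CPM in 136 combinations of gene and group, of which 24 were found. Chance gives about 1 in 20. Of the 24, 16 were the same tumor, AE17 IPL replicate 5, as the highest of its group. Its uptake and storage genes stood at 265 CPM for Lpl, 188 for Cd36, 169 for Acsl1, 186 for Pnpla2, 44.0 for Abhd5 and 50.0 for Mgll. Its carnitine shuttle genes stood at 59.0 CPM for Cpt2, 44.5 for Slc25a20 and 70.0 for Crat. Its oxidation genes stood at 63.2 CPM for Acadvl, 155 for Acadl, 133 for Acadm, 142 for Hadhb, 65.6 for Hadh, 12 for Ehhadh and 73.6 for Etfdh. In the same tumor the white adipocyte markers summed to 908 CPM, the brown adipocyte markers to 96.2 CPM and the heart muscle markers to 186 CPM, and the next highest AE17 IPL tumors stood at 52.9, 0.893 and 29.9 CPM. Their part in these values was not tested.

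The other 8 were Fabp5 at 47.4 CPM, the lowest value, in AE17 IPL replicate 8, Acsl4 at 17.6 CPM, the lowest, in AB1 IPL replicate 4, Cpt1b at 0.606 CPM and Pdk4 at 2.30 CPM, both the lowest, in AE17 SC replicate 8, Crat at 65.1 CPM, the highest, in AE17 SC replicate 6, and Hadha at 139 CPM, Hadhb at 86.0 CPM and Eci2 at 35.7 CPM, all the lowest, in AE17 SC replicate 1.

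The site effect differed between the models, by the test of that difference with edgeR, for 14 members. As the AB1 log2 fold change minus that of AE17, it was 4.03 for Pdk4, 3.48 for Ucp3 and 3.40 for Fabp3, and -1.50 for Fabp5 and -0.662 for Acsl4. It was 0.638 for Hadh, 0.626 for Crat, 0.522 for Acadvl, 0.387 for Abhd5, 0.366 for Acads, 0.332 for Eci2, 0.324 for Hsd17b4, 0.297 for Cpt2 and 0.262 for Hadha. The Acads call was lost without any 1 of 19 of the 32 tumors, with a highest adjusted p of 0.0756. With lane as a covariate 1 of the 14 was called, and with the marker sums as covariates 3. Of all 15681 genes, 117 (0.746%) and 745 (4.75%) were called in these fits, against 3212 (20.5%) in the main fit.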

How the results depend on the processing

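No called member changed sign under any alternative, but Cd36 between the models in IPL tumors, not called at -0.081, was called as higher in AB1 without AE17 IPL replicate 5 (adjusted p = 0.024). The number called in AB1 was 17, against 4 at a log2 fold change of at least 1, 1 with lane as a covariate, 1 within lane 3, 2 with the marker sums as covariates and 8 without the 4 tumors highest in muscle markers. In AE17 it was 3 (5.73%), against 1 at a log2 fold change of at least 1, 5 by DESeq2 (9.72%) and 0 with lane (0.00682%) or the marker sums (0.157%) as covariates or within lane 1 (0.0911%). For the difference between models it was 14 (20.5%), against 4 at a log2 difference of at least 1, 1 with lane (0.746%) and 3 with the marker sums (4.75%) as covariates. Between the models it was 19 in SC and 15 in IPL tumors, against 4 in each at a log2 fold change of at least 1. Leaving out 1 tumor gave 13 to 20 in AB1, 1 to 4 in AE17 (1 without AE17 IPL replicate 4 or 7, 4 without AE17 IPL replicate 5 or AE17 SC replicate 1 or 3), 10 to 19 for the difference between models, 18 to 21 in SC and 12 to 19 in IPL tumors. The cause of these changes was not tested. Deviations of same-numbered IPL and SC tumors correlated at r from -0.316 to 0.0119 in AB1, with 0 of 8 pairs over 0.1, and from -0.260 to 0.288 in AE17, with 5 of 8 (mean 0.087, against -0.007 for other numbers). Of 8 tumors, 0 and 2 correlated best with their own number. The numbers were not taken to pair the tumors, since not every pair was over 0.1. With the replicate block, 9 members were called in AB1, 3 in AE17, 12 for the difference between models, 18 in SC and 14 in IPL tumors. Of all genes, 15.5%, 4.51%, 15.3%, 60.1% and 55.5% were called with it, in the same order. A gene with few counts, such as Ucp3 in AB1 SC tumors with 1 to 7, is limited by depth. Ucp3 was called in AB1 by DESeq2 (log2 fold change 3.82, adjusted p = 1.24e-09).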
